A study of Mus musculus with 6 samples.

Results

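The 10 genes described here encode integrin subunits that cells of the heart are known to use, the α subunits Itga1, Itga5, Itga6, Itga7, Itga8, Itga11 and Itgav and the β subunits Itgb1, Itgb3 and Itgb5. They were taken by symbol from the 17570 genes in the mRNA tables of 6 mouse hearts, and all 10 were found. The tested hearts came from miR-27b-null mice 8 weeks after transverse aortic constriction, a surgical narrowing of the aorta that loads the left ventricle with pressure (KO/TAC, n = 3), and the hearts they were set against came from wild-type mice with the same surgery and time (WT/TAC, n = 3). Mice were C57BL/6J and 10 to 12 weeks old at surgery. The null mice were homozygous for an allele, made with TALEN nucleases, that lacks 10 bases of mature miR-27b-3p in every cell of the body. Both groups were operated, so the comparison is of genotype under pressure load, and no unoperated heart was analysed here. RNA came from heart tissue as a mixture of cells, in which fewer cells of a type and less RNA per cell cannot be told apart.

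Integrins are pairs of an α and a β subunit that span the cell membrane, hold the cell to its matrix and pass force and signals across the membrane. In the heart, cardiomyocytes hold to laminin mainly through α7β1, fibroblasts bind collagen through α1β1 and α11β1 and fibronectin through α5β1, and αv pairs with β1, β3 or β5 to bind ligands with an RGD (arginine-glycine-aspartate) motif, among them the latent form of TGF-β. Inside the cell, talin, kindlin, vinculin and the kinase-like protein ILK link the β tail to actin.

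The deleted miRNA acts by pairing of its seed, bases 2 to 8, with a site in the 3′ UTR of a target mRNA, so seed sites are shown for the members that hold one. The mature miR-27b-3p and its paralog miR-27a-3p, from RefSeq (GRCm38.p6), share the seed, here in capitals. Mir27b lies on chromosome 13 and Mir27a on chromosome 8. The site searched, ACTGTGA, was the 7 bases that pair with the seed.
miR-27b-3p: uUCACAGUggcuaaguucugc
miR-27a-3p: uUCACAGUggcuaaguuccgc
The longest 3′ UTR annotated for a gene (GENCODE M21, GRCm38) was searched, and 3 of the 10 members held the site, which is a match of letters and not a shown target. Of 12160 tested genes with a 3′ UTR, 17.3% held it. Itga1 held 2 sites in a 3′ UTR of 6994 bases, at chr13:114954445-114954451 and chr13:114953689-114953695 on the minus strand. Both lie past the 3′ end of the RefSeq gene (chr13:114958079), in the longer GENCODE 3′ UTR. Itga5 held 1 in 983 bases at chr15:103345083-103345089 on the minus strand, and Itga11 held 1 in 1283 bases at chr9:62783515-62783521 on the plus strand. The site is in capitals in each.
Itga1, upstream site: ggacactcagcACTGTGActacatttggcg
Itga1, downstream site: tgtgtgttactACTGTGAagctgtcctgat
Itga5: tccccccatgcACTGTGAaggaccctcgtt
Itga11: ctggtagatgcACTGTGAtagggagcctct
The site of Itga5 and the downstream site of Itga1 are followed by an A. No site was found in Itga6, Itga7, Itga8, Itgav, Itgb1, Itgb3 or Itgb5.

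The hearts were not alike in the tissue they held. WT/TAC replicate 1 carried atrial muscle transcripts in place of ventricular ones, and KO/TAC replicate 2 and WT/TAC replicate 3 held more of the adipocyte genes and of the contractile smooth muscle genes Myh11, Tagln and Cnn1 than the other 4 hearts, together with some atrial and mesothelial transcripts. The deposited extraction text names granulosa cells, whereas the tissue label is heart, and cardiomyocyte and endothelial markers were high in all 6 hearts.

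Levels are given as FPKM, fragments per kilobase of transcript scaled to the size of the library, which can be compared between genes. The mRNA of Itgb1, the β subunit shared by most of the α subunits here, was the most abundant of the 10 in both groups, at 83.8 ± 10.7 FPKM in KO/TAC hearts and 91.5 ± 19.4 FPKM in WT/TAC hearts (SD, n = 3 each). Itga7, the laminin receptor subunit of striated muscle, and Itgb5, a partner of αv, came next. In KO/TAC hearts Itga7 stood above Itgb5 with no overlap of their ranges (53.96 to 63.25 against 41.45 to 46.09 FPKM), whereas in WT/TAC hearts these ranges overlapped. Itga5 and Itga6 followed. Their ranges overlapped in KO/TAC hearts, at 16.34 to 19.26 FPKM for Itga5 and 13.27 to 21.05 FPKM for Itga6, and were apart in WT/TAC hearts, at 28.81 to 33.31 and 14.08 to 18.26 FPKM. Itga1 and Itgav lay between 2.76 and 8.50 FPKM over the 6 hearts, with ranges that overlapped in each group. Itga8, Itga11 and Itgb3 were the lowest, from 0.44 to 2.68 FPKM, and in each group neighbours in the order among them overlapped.

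**Figure D1:**
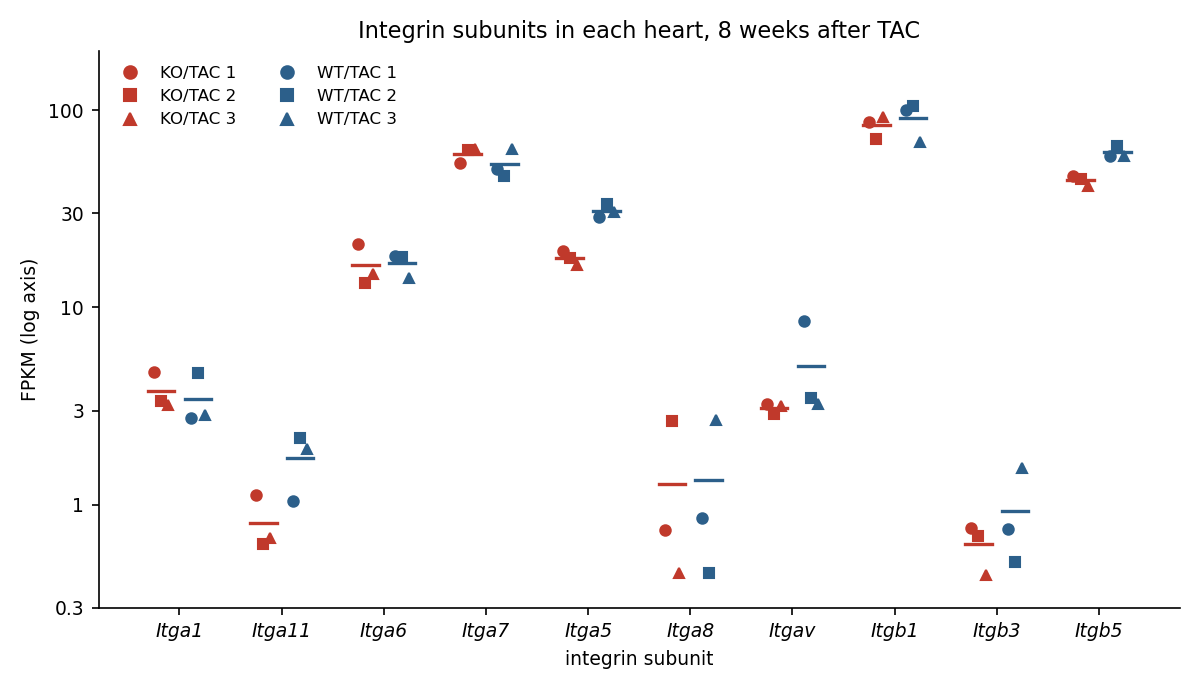
FPKM (log axis) of the 10 integrin subunits in each heart, with 1 symbol per heart, KO/TAC in red to the left and WT/TAC in blue to the right, and a bar at the mean of 3 hearts. Only Itga5 and Itgb5 have no overlap between groups, and Itgav and Itga8 each have hearts that stand far from the rest of their group.

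Of the 10 members, 3 fell in KO/TAC hearts (Itga5, Itgb5 and Itga11) and 0 rose, where a call needed both a limma p under 0.05 before adjustment and a change of 1.2-fold or more in the fit. Over the 12520 genes tested 6.14% were called lower, 4.94% higher and 11.1% either way. All 10 members passed the filter of a mean of 0.5 FPKM. The median log2 fold change of the members, KO/TAC over WT/TAC, was -0.20, beside 0.00 (-0.0047) for all genes tested, and 8 of the 10 were below 0. Without WT/TAC replicate 1 the same count of 3 was called lower. Calls over all genes rose in that setting, from 769 to 931 lower and from 618 to 939 higher. Groups did not overlap for 2 of the 10, where 18.3% of all genes tested had groups apart. After adjustment over all genes, 0 members had a limma p under 0.05, whereas 3 did before it, and 2 of the 12520 genes tested passed. A gene-by-gene test without limma's shared spread called 2 members, Itga5 and Itgb5. The smallest adjusted p of a member was 0.17, for Itga5.

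The drop of Itga5, which encodes the α chain of the fibronectin receptor α5β1, had the smallest p of the 10. Its values were 19.26, 17.87 and 16.34 FPKM in KO/TAC hearts and 28.81, 33.31 and 30.57 FPKM in WT/TAC hearts. Every KO/TAC heart was below every WT/TAC heart, and the gap between the groups was wider than the range within either. The log2 fold change was -0.78 with a standard error of 0.12 (95% interval -1.06 to -0.50), a fitted fall of 1.71-fold (limma unadjusted p = 0.00033, adjusted p = 0.17). By unadjusted p, Itga5 ranked 25 among all genes tested. It held its call with any single heart left out, between -0.83 and -0.72. Itga5, Itga11 and Itga1 are the 3 members with a site for the miR-27 seed, those of Itga1 past the end of its RefSeq gene. The part of these sites in their levels was not tested.

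Itgb5, the β chain of the vitronectin receptor αvβ5, moved the same way. Its mRNA was at 46.09, 44.94 and 41.45 FPKM in KO/TAC hearts and at 58.46, 66.09 and 58.59 FPKM in WT/TAC hearts. The groups were again apart. The log2 fold change was -0.46 with a standard error of 0.11 (95% interval -0.72 to -0.20), a fitted fall of 1.38-fold (limma unadjusted p = 0.0041, adjusted p = 0.26). It also held with any heart left out, between -0.49 and -0.40.

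Itga11, the collagen receptor subunit of fibroblasts, was the third member past the limits, on low values. It was at 1.12, 0.63 and 0.68 FPKM in KO/TAC hearts and at 1.04, 2.19 and 1.92 FPKM in WT/TAC hearts. The groups overlapped, since KO/TAC replicate 1 was above WT/TAC replicate 1. The log2 fold change was -0.74 with a standard error of 0.27 (95% interval -1.38 to -0.09, limma unadjusted p = 0.030, adjusted p = 0.40), and on the scale of log2(FPKM + 0.5) the change of so low a gene is understated. The call was lost with any of 4 hearts left out, KO/TAC replicate 2 (-0.64) or 3 (-0.67) and WT/TAC replicate 2 (-0.58) or 3 (-0.65). At the estimated depth, the KO/TAC heart with the fewest held about 40 fragments of it, a counting error of 15.8%.

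**Figure D2:**
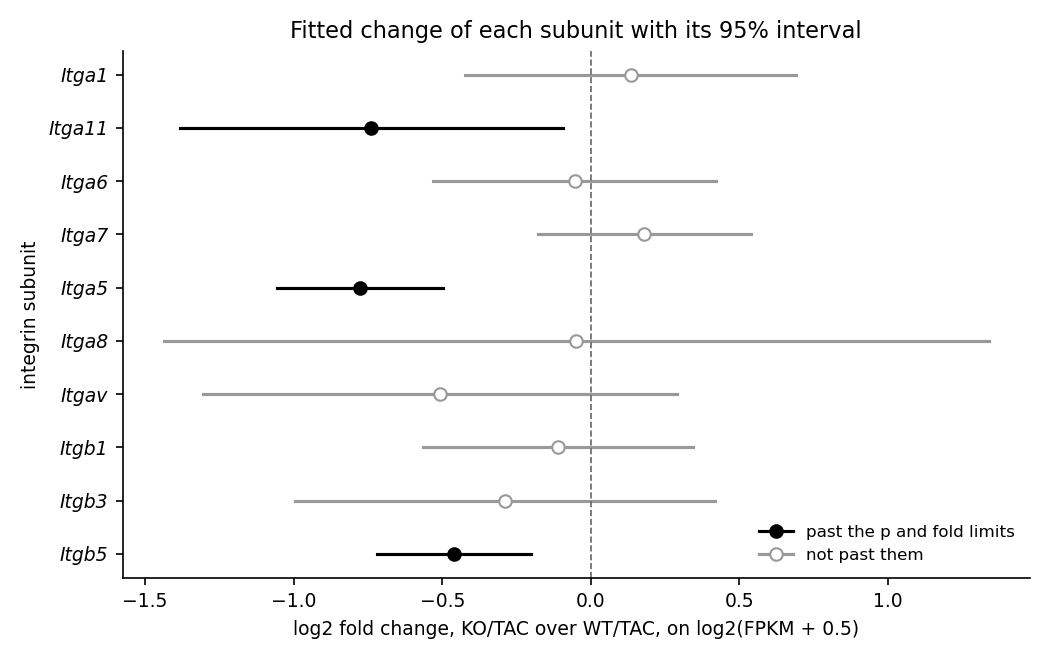
Log2 fold change of each subunit, KO/TAC over WT/TAC, on log2(FPKM + 0.5) with its 95% interval from limma. Filled points passed both limits of a call: Itga11 at -0.74, Itga5 at -0.78 and Itgb5 at -0.46. The intervals of the other 7 cross 0, and that of Itga8 is the widest, from -1.44 to 1.34.

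Among the collagen receptors, Itga1 did not follow Itga11. Itga1 was at 4.73, 3.34 and 3.20 FPKM in KO/TAC hearts and at 2.76, 4.64 and 2.86 FPKM in WT/TAC hearts, with groups that overlapped. Its log2 fold change was 0.13 (95% interval -0.42 to 0.69, limma adjusted p = 0.86). These bounds hold changes of either sign, so equality of the groups is not shown.

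The laminin receptor subunits Itga6 and Itga7 were not called. Itga7 was at 53.96, 63.05 and 63.25 FPKM in KO/TAC hearts and at 50.03, 46.46 and 63.52 FPKM in WT/TAC hearts. The highest value was in WT/TAC replicate 3, above every KO/TAC heart. The log2 fold change was 0.18 (95% interval -0.18 to 0.54, limma adjusted p = 0.69). Itga6, found in cardiomyocytes and endothelium, was at 21.05, 13.27 and 14.75 FPKM in KO/TAC hearts and at 18.26, 18.04 and 14.08 FPKM in WT/TAC hearts. The KO/TAC hearts held both the highest and the lowest value of the 6, and the log2 fold change was -0.05 (95% interval -0.53 to 0.42).

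Itgb1, on which the α subunits above depend to reach the membrane, was at 87.57, 71.67 and 92.05 FPKM in KO/TAC hearts and at 99.67, 105.50 and 69.28 FPKM in WT/TAC hearts. The lowest heart was a WT/TAC heart, and the groups overlapped. Its log2 fold change was -0.11 (95% interval -0.57 to 0.34, limma adjusted p = 0.86). Itgb3, the β chain of αvβ3 and of the platelet fibrinogen receptor, was near the filter, at 0.76, 0.69 and 0.44 FPKM in KO/TAC hearts and at 0.75, 0.51 and 1.53 FPKM in WT/TAC hearts. WT/TAC replicate 3 stood above the rest, and the log2 fold change was -0.29 (95% interval -0.99 to 0.42), and -0.0031 without that heart.

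For 2 of the RGD receptors, Itgav and Itga8, single hearts carried most of the spread. Itgav was at 3.23, 2.89 and 3.16 FPKM in KO/TAC hearts and at 8.50, 3.48 and 3.22 FPKM in WT/TAC hearts. Only WT/TAC replicate 1 was high, and the other 5 hearts lay between 2.89 and 3.48 FPKM. The log2 fold change was -0.51 (95% interval -1.31 to 0.29, limma adjusted p = 0.62), and -0.10 without WT/TAC replicate 1. In that library the atrial light chain Myl7 was at 8140 FPKM and the ventricular light chain Myl2 at 81.0 FPKM, while Myl2 was between 13034 and 14329 FPKM in KO/TAC hearts and at 11784 FPKM in WT/TAC replicate 2 and 9735 FPKM in WT/TAC replicate 3. The 5 atrial markers together ranged from 6.20 to 938 FPKM in KO/TAC hearts and from 5.94 to 24014 FPKM in WT/TAC hearts, the 3 ventricular markers from 21226 to 23120 FPKM in KO/TAC hearts and from 269 to 19766 FPKM in WT/TAC hearts, and none of these markers was at 0 in all hearts. With log2 Myl7 as a covariate, the log2 fold change of Itgav was -0.33 (limma unadjusted p = 0.39), and Itga5, Itgb5 and Itga11 kept their calls, at -0.82, -0.50 and -0.95.

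Itga8, whose product pairs with β1 in smooth muscle and stromal cells, was high in a heart of each genotype. It was at 0.74, 2.65 and 0.45 FPKM in KO/TAC hearts and at 0.86, 0.45 and 2.68 FPKM in WT/TAC hearts. KO/TAC replicate 2 and WT/TAC replicate 3 stood far above the other 4 hearts, and the log2 fold change between the genotypes was -0.05 with the widest interval of the 10 members (-1.44 to 1.34). Npnt, which encodes nephronectin, a ligand of α8β1, had the same pattern, at 0.18, 1.84 and 0.21 FPKM in KO/TAC hearts and at 0.50, 0.30 and 2.13 FPKM in WT/TAC hearts. The smooth muscle myosin Myh11 was at 19.7 FPKM in KO/TAC replicate 2 and at 23.2 FPKM in WT/TAC replicate 3, against 4.79 to 6.22 FPKM in the other 4 hearts. The adipocyte gene Cfd was at 36.5 FPKM in that KO/TAC heart and at 167 FPKM in that WT/TAC heart, against 0 to 1.33 FPKM elsewhere. Tagln was at 69.2 FPKM in KO/TAC replicate 2 and at 94.1 FPKM in WT/TAC replicate 3, against 18.8 to 23.9 FPKM in the other 4 hearts. The pericyte marker Rgs5 did not share this pattern, at 102.3, 64.2 and 113.1 FPKM in KO/TAC hearts and at 56.0, 85.4 and 54.4 FPKM in WT/TAC hearts. The 6 smooth muscle and pericyte markers together ranged from 181 to 203 FPKM in KO/TAC hearts and from 115 to 228 FPKM in WT/TAC hearts, and the 3 adipocyte markers from 0.31 to 50.6 FPKM in KO/TAC hearts and from 0.03 to 198 FPKM in WT/TAC hearts. The same 2 hearts also held atrial Myl7, at 333 FPKM in KO/TAC replicate 2 and 1135 FPKM in WT/TAC replicate 3, while it was at 8140 FPKM in WT/TAC replicate 1 and from 0.23 to 0.66 FPKM in the other 3 hearts. The mesothelial marker Upk3b was at 3.92 FPKM in KO/TAC replicate 2 and 5.41 FPKM in WT/TAC replicate 3. In WT/TAC replicate 1, where Itga8 was at 0.86 FPKM, Upk3b was at 36.2 FPKM. With log2 Myl7 as a covariate the log2 fold change of Itga8 was 0.47 and not called. The part of smooth muscle and adipose tissue in the level of Itga8 was not tested. With both hearts left out, 2 of the members were called lower, Itga5 (-0.79) and Itgb5 (-0.50), while Itga11 was at -0.56 and not called.

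**Figure D3:**
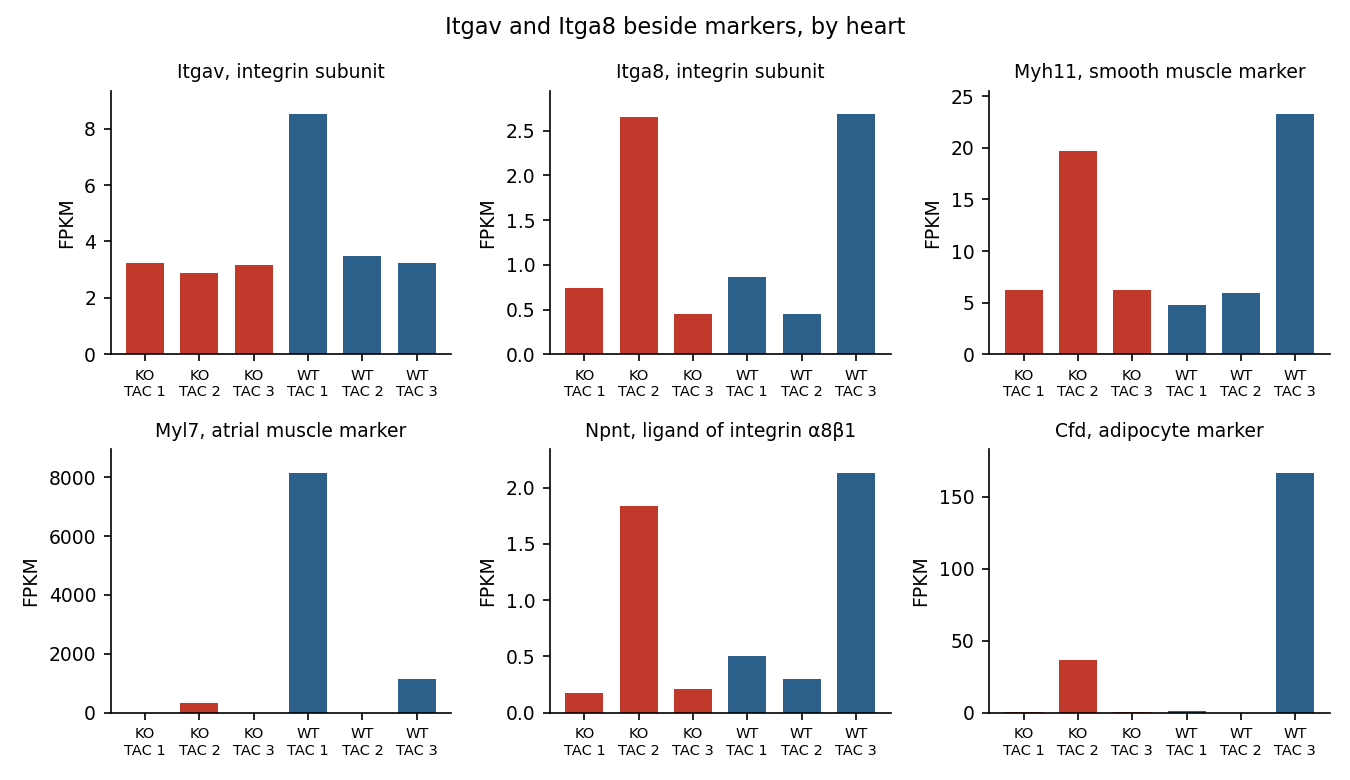
FPKM in each heart (bars, from 0; KO/TAC red, WT/TAC blue) of Itgav above the atrial marker Myl7, Itga8 above its ligand Npnt, and the smooth muscle marker Myh11 above the adipocyte marker Cfd. Itgav and Myl7 peak in WT/TAC replicate 1 (8.50 and 8140 FPKM), and Itga8, Npnt, Myh11 and Cfd are highest in KO/TAC replicate 2 and WT/TAC replicate 3.

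Since an integrin works as a pair, the α mRNA was also set against its β partner within each heart, as a log2 ratio of (FPKM + 0.5), a measure that the scaling of a library moves little. Of 9 pairs, groups were apart for Itga5 to Itgb1 alone. That ratio was -2.16, -1.97 and -2.46 in KO/TAC hearts and -1.77, -1.65 and -1.17 in WT/TAC hearts, a difference of -0.67 (exact permutation test, two-sided p = 0.10, the smallest that 3 against 3 hearts allow, adjusted over the 9 pairs p = 0.90). Itga11 to Itgb1 was -6.02 ± 0.27 in KO/TAC hearts and -5.39 ± 0.59 in WT/TAC hearts (SD, n = 3 each; exact permutation p = 0.30). Itga7 to Itgb1 was -0.47 ± 0.26 in KO/TAC hearts and -0.76 ± 0.56 in WT/TAC hearts (exact permutation p = 0.50). For Itgav to Itgb5 the difference was -0.05, and 0.39 without WT/TAC replicate 1. For Itgav to Itgb1 it was -0.40, and -0.062 without that heart, and for Itgav to Itgb3 it was -0.22, and 0.25 without that heart. The differences of the other 3 pairs ran from 0.056 to 0.24 with overlapping groups.

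**Figure D4:**
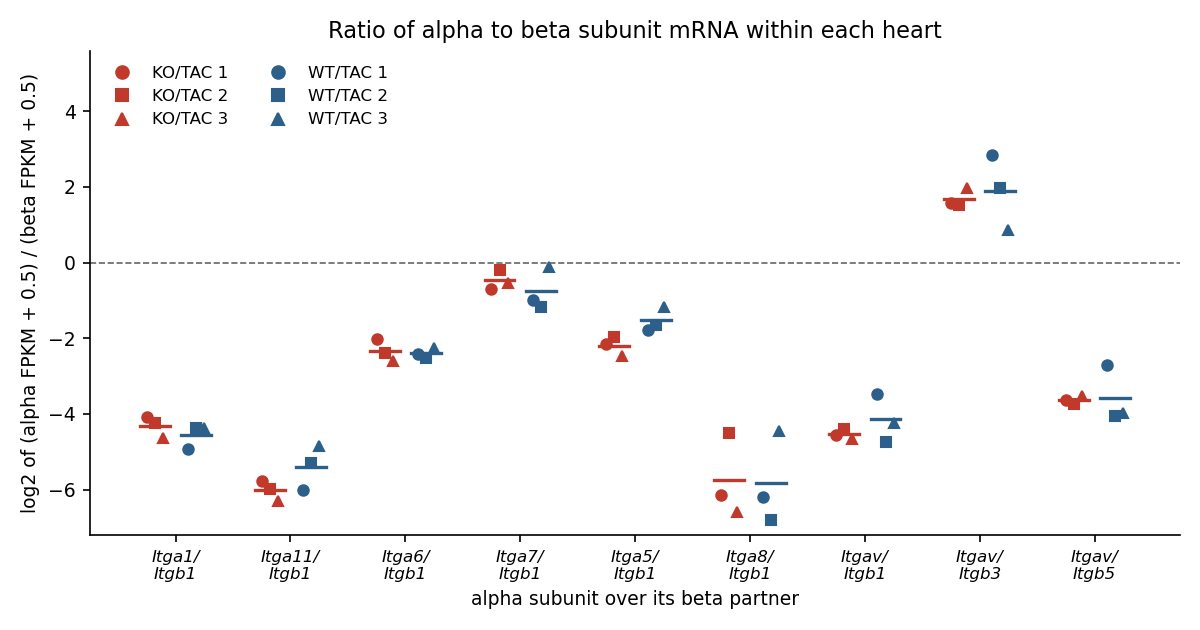
Log2 ratio of α to β subunit mRNA within each heart for 9 pairs, with 1 symbol per heart (KO/TAC red, left; WT/TAC blue, right) and a bar at the mean. For Itga5 to Itgb1 all 3 KO/TAC hearts lie below all 3 WT/TAC hearts, and in the other 8 pairs the groups overlap.

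As a share of the 7 α subunits' summed FPKM, Itga5 made up 16.0% to 18.5% in KO/TAC hearts and 25.7% to 30.7% in WT/TAC hearts. Itga7 made up 51.8% to 62.1% in KO/TAC hearts and 42.8% to 53.4% in WT/TAC hearts, with overlap. The summed α level was 102 to 104 FPKM in KO/TAC hearts and 109 to 119 FPKM in WT/TAC hearts. Itgb1 held 61.1% to 68.7% of the β sum in KO/TAC hearts and 53.5% to 62.7% in WT/TAC hearts, with overlap.

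The genes with the profile most like a called member were sought among 11522 genes of at least 1 FPKM over the 6 hearts, by the root mean square difference of log2(FPKM + 0.5) after centring. For Itga5 these were Baiap2l1 (0.063), Pcolce (0.071) and Taok3 (0.082). Pcolce, which encodes the enhancer of the protease that trims procollagen, was at 46.58, 39.75 and 35.94 FPKM in KO/TAC hearts and at 72.08, 79.74 and 68.96 FPKM in WT/TAC hearts. For Itgb5 they were Abca9, Dlg5 and Klc1 (0.033 to 0.040), and for Itga11 they were Igfbp7, Mxra7 and Pmepa1 (0.10 to 0.13). Igfbp7, a secreted binding protein of insulin-like growth factors, was at 220.9, 164.3 and 151.6 FPKM in KO/TAC hearts and at 237.0, 388.2 and 304.6 FPKM in WT/TAC hearts.

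Promoters are shown for Itga5 and Itgb5, the members whose groups were apart, as the 300 bases around the start of the gene (RefSeq, GRCm38.p6). Both strands were searched for GGAATG (TEAD), TGANTCA (AP-1), GTCTG (SMAD) and GGGCGG (GC box), and matches are in capitals. RefSeq promoters were matched for 7 of the 10 members, so Itga6, Itga7 and Itgb3 are not included. The Itga5 window is chr15:103366742-103367041 on the minus strand and the Itgb5 window chr16:33829415-33829714 on the plus strand.
Itga5: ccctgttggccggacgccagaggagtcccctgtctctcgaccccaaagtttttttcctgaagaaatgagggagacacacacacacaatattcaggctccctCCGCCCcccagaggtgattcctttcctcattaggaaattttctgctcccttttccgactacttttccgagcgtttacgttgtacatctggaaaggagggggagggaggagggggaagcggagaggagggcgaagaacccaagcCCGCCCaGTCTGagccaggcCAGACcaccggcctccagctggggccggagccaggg
Itgb5: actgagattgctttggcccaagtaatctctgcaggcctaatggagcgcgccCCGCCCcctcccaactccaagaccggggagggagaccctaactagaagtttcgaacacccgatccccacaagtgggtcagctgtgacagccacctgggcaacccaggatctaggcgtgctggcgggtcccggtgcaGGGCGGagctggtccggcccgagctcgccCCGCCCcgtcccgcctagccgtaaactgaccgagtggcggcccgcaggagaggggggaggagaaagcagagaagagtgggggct
Itga5 held 2 GC boxes and 2 SMAD matches, and Itgb5 held 3 GC boxes. No matches overlapped. Of the 7 matched members, 4 held a GC box, as did 35.7% of 32851 promoters of this length, and 3 held a SMAD match, as did 49.6%. The TEAD letters were in 1 member (14.7% of promoters) and the AP-1 letters in 0 (7.81%). These are matches of letters and not shown sites.

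Of the 17 other integrin subunits listed, 16 were in the files and 11 were tested. Itgb6 was the only one called, and it rose, where 4.94% of all genes tested were called higher. Itgb6, an epithelial partner of αv that activates latent TGF-β, was at 4.23, 4.46 and 4.47 FPKM in KO/TAC hearts and at 2.41, 2.59 and 1.71 FPKM in WT/TAC hearts. Every KO/TAC heart was above every WT/TAC heart, and the log2 fold change was 0.85 (standard error 0.17, limma unadjusted p = 0.0015, adjusted p = 0.23). It passed with any heart left out. The median log2 fold change of the 11 was -0.10.

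Of 10 collagen ligands 7 were called lower and 0 higher, with a median log2 fold change of -0.61. Of all genes tested, 6.14% were called lower and 4.94% higher. Among them were Col1a2 at 39.85, 30.28 and 26.26 FPKM in KO/TAC hearts and 62.26, 79.11 and 68.61 FPKM in WT/TAC hearts (log2 fold change -1.13, limma adjusted p = 0.17), Col5a2 (-1.04), Col1a1 (-0.85) and Col6a1 (-0.57). The basement membrane chains Col4a1 (0.04) and Col4a2 (0.05) and Col6a3 (-0.04) were not called. The count of 7 came to 3 with KO/TAC replicate 2 or 3 or WT/TAC replicate 2 left out, to 4 with WT/TAC replicate 3 left out, and to 3 with the hearts high in Myh11 and Cfd left out together.

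Of 11 RGD ligands tested, 6 were called lower and 0 higher, with a median of -0.40, beside 6.14% lower and 4.94% higher of all genes tested. Fn1, the fibronectin that α5β1 binds, was at 10.82, 12.64 and 6.46 FPKM in KO/TAC hearts and at 28.75, 18.11 and 21.52 FPKM in WT/TAC hearts (log2 fold change -1.18, standard error 0.28, limma unadjusted p = 0.0039, adjusted p = 0.26), with groups apart. Thbs1, which encodes thrombospondin-1, an activator of latent TGF-β, had the largest change of the list, at 2.94, 2.75 and 2.44 FPKM in KO/TAC hearts and 5.15, 13.19 and 17.79 FPKM in WT/TAC hearts (log2 fold change -1.81). Tgfb3 (-1.07) and Tgfb1 (-0.40), whose latent forms are bound by αv integrins, were also lower. Vtn, the vitronectin that αvβ5 binds, was not called, at 26.58, 14.46 and 21.71 FPKM in KO/TAC hearts and 10.45, 14.38 and 16.75 FPKM in WT/TAC hearts. Its log2 fold change was 0.56 (limma unadjusted p = 0.071, adjusted p = 0.49), the opposite sign to that of Itgb5. With the hearts high in Myh11 and Cfd left out, 3 were called lower and 1 higher.

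Of 9 laminin chains tested, Lamc1, the γ1 chain of most heart laminins, was the only one called, at 39.50, 31.61 and 28.51 FPKM in KO/TAC hearts and 43.24, 43.65 and 42.16 FPKM in WT/TAC hearts (log2 fold change -0.38, limma adjusted p = 0.40). Its call was lost when replicate 2 or 3 of either group was left out. Over all genes tested, 6.14% were called lower, so 1 call among 9 chains is near that share. Lama2, the α2 chain that α7β1 binds in muscle, was at 11.8 ± 1.1 FPKM in KO/TAC hearts and 13.4 ± 0.98 FPKM in WT/TAC hearts (SD, n = 3 each) and was not called.

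Inside the cell, 7 of 33 tested adhesion plaque genes were called lower and 2 higher, with a median of -0.13. Of all genes tested, 6.14% were called lower and 4.94% higher, and the 2 called higher are near that share. Zyx, a LIM protein of stressed adhesions and actin fibres, had the smallest p, at 33.45, 34.90 and 29.57 FPKM in KO/TAC hearts and 61.20, 48.27 and 60.16 FPKM in WT/TAC hearts (log2 fold change -0.78, limma adjusted p = 0.21). Sorbs3 (vinexin, -0.43), Actn4 (-0.47) and Ptk2b (Pyk2, -0.83) also fell, and so did Tln1 (-0.37), Vasp (-0.37) and Src (-0.54). The 2 that rose were Lims1 (0.39), which encodes PINCH1, and Itgb1bp2 (0.29), the muscle protein melusin that binds the β1 tail. Melusin mRNA was at 163.5, 146.8 and 158.2 FPKM in KO/TAC hearts and at 133.0, 137.7 and 113.9 FPKM in WT/TAC hearts, with a limma adjusted p of 0.44. Vcl, Ilk, Fermt2 and Ptk2 (focal adhesion kinase) were not called. With the hearts high in Myh11 and Cfd left out, 1 gene of the list was called lower and 0 higher. With KO/TAC replicate 2 left out 3 genes of the list were called lower, and with KO/TAC replicate 3 left out 4 were. The count called higher was 0 with KO/TAC replicate 2 or 3 or WT/TAC replicate 3 left out, and 1 with KO/TAC replicate 1 or WT/TAC replicate 2 left out.

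Of 10 membrane partners of integrins, 4 were called lower and 0 higher, with a median of -0.27, where 6.14% of all genes tested were called lower and 4.94% higher. Cd63, a tetraspanin, was at 150.6, 122.5 and 126.3 FPKM in KO/TAC hearts and 259.8, 206.9 and 193.5 FPKM in WT/TAC hearts (log2 fold change -0.72, limma adjusted p = 0.25). The others were Slc3a2 (-0.45), the heavy chain of CD98 that binds β1, Cd9 (-0.47) and Plaur (-0.63), the urokinase receptor. The count was 2 without KO/TAC replicate 2, and also with the hearts high in Myh11 and Cfd left out.

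**Figure D5:**
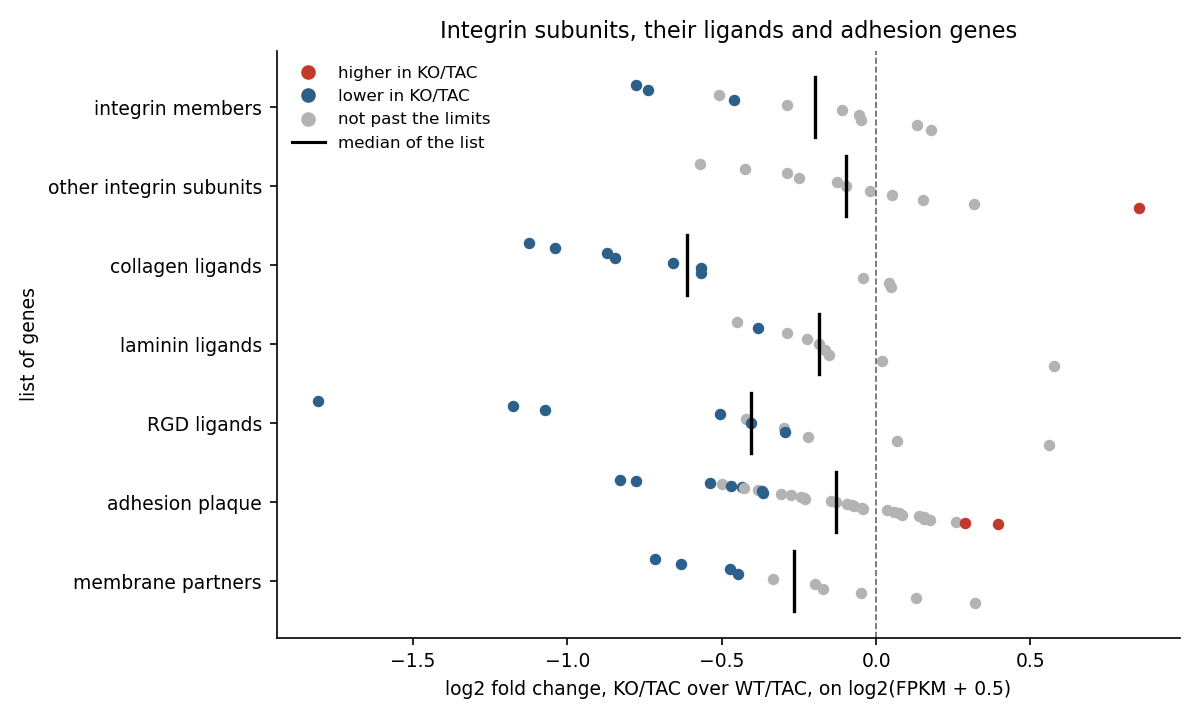
Log2 fold change, KO/TAC over WT/TAC, of every tested gene in 7 lists (1 point per gene; red called higher, blue called lower, grey not called; black line, median of the list). Collagen ligands have the lowest median, -0.61, and Itgb6 at 0.85 is the highest gene among the integrin subunits.

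Cell type markers were set beside these lists. The 6 fibroblast markers together ranged from 777 to 893 FPKM in KO/TAC hearts and from 950 to 1976 FPKM in WT/TAC hearts, so the groups were apart. Gsn was the largest term of this sum in every heart, at 468 to 591 FPKM in KO/TAC and 531 to 1301 FPKM in WT/TAC, with overlap. Pdgfra, Tcf21, Dcn and Lum, 4 of the 6, were called lower, and Gsn and Dpt were not called. Of all genes tested, 6.14% were called lower. The 5 markers of activated fibroblasts ranged from 61.7 to 108 FPKM in KO/TAC hearts and from 67.3 to 174 FPKM in WT/TAC hearts, with overlap. Single genes set the high sums, Acta2 in KO/TAC replicate 2 (93.1 FPKM) and WT/TAC replicate 3 (121.8 FPKM), and Postn in WT/TAC replicate 2 (114.4 FPKM). Of these 5, Comp was called lower (log2 fold change -3.05, limma adjusted p = 0.15) while Postn, Cthrc1, Fap and Acta2 were not called. The 6 cardiomyocyte markers summed to between 43474 and 43921 FPKM in KO/TAC hearts and between 31954 and 40589 FPKM in WT/TAC hearts, also apart. None of these 6 was called. Singly, Tnni3 and Mb had groups apart, while the groups of Myh6, Actc1, Tnnt2 and Ryr2 overlapped. The 6 endothelial markers ranged from 899 to 1293 FPKM in KO/TAC hearts and from 556 to 1050 FPKM in WT/TAC hearts, with overlap. Fabp4 was the largest term of this sum in every heart, at 588 to 966 FPKM in KO/TAC and 265 to 730 FPKM in WT/TAC, with overlap. None of these 6 was called, and only Egfl7 had groups apart. Pecam1 had the lower mean in KO/TAC hearts (77.0 against 90.8 FPKM), while Cdh5, Kdr, Tie1, Egfl7 and Fabp4 had the higher. The part of fibroblast number in the lower Itga5, Itgb5, Itga11 and collagen levels was not tested.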

How the data were processed

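RNA of 6 hearts was sequenced (KAPA stranded kit), 1 library a heart. The authors deposited FPKM to 2 decimals for 17570 Entrez Gene IDs, and 17441 matched a RefSeq symbol. The submitters' processing notes name HISAT2 2.0.5 and StringTie 1.3.3, and both hg38 and mm9 as builds, with no role, although the libraries are from mouse. Which build the FPKM rest on, and the settings, are not stated there. Counts are not in the files. Depth, estimated from the spacing of FPKM between 0.03 and 0.4 in 781 single-transcript genes, was 12800000 to 13000000 fragments in KO/TAC and 15300000 to 15900000 in WT/TAC, with 56.3% to 68.0% of the low values within 0.2 of a whole step (40% by chance). The number for a gene is thus approximate and its error covers counting only.

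With limma 3.58.1 (R 4.3.3; lmFit, eBayes with a trend), log2(FPKM + 0.5) was compared for the 12520 genes that averaged 0.5 FPKM or more, two-sided, and p was adjusted over them by Benjamini-Hochberg. A call needed p under 0.05 before adjustment and a fold of 1.2 or more in the fit. Ratios were tested by exact permutation over hearts (Python 3.11.15, scipy 1.17.1). The fit was tested on simulated data. The labels number the hearts but do not say that they are separate animals, so p-values measure the spread between these samples. The members and lists were chosen with earlier results of these data known. All members are named, and of each other list up to 4 called genes by smallest p, with others named after their values were seen. Other settings tried were pseudocounts, filters, scalings, variance models, sample weights, a replicate block, Myl7 as a covariate, other limits and each heart left out. The level of miR-27b was not analysed here, so the genotype labels have no check in these values.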

Additional observations from a re-analysis of the deposited data

How the results depend on the processing

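Over 21 alternatives each, Itga5 and Itgb5 kept their calls in all except an adjusted p under 0.05, with log2 fold changes from -0.83 to -0.72 and from -0.50 to -0.40. Itga11, too low to be tested at a minimum mean of 5 FPKM, kept its call in 12 of 20. At an adjusted p under 0.05, 0 genes of every list and, over all genes, 0 lower and 2 higher were called. With KO/TAC replicate 2 and WT/TAC replicate 3 left out together, a choice made after seeing the data, 362 genes were called lower and 353 higher (against 769 and 618), with 3 collagen, 0 laminin and 3 RGD ligands, 1 adhesion plaque gene and 2 membrane partners called lower, and 1 RGD ligand and 0 adhesion plaque genes higher. A minimum mean of 5 FPKM gave 510 genes called lower, 0 other integrin subunits higher (Itgb6 was not tested) and 1 adhesion plaque gene higher. Adhesion plaque genes called higher also came to 1 with no variance trend, with robust eBayes and with the 2-sample test, and to 0 with log2 Myl7 as a covariate. Laminin ligands called lower came to 2 with no filter and with log2 Myl7, and to 0 with sample weights and the 2-sample test, which also called 3 collagen ligands lower. Of changes that were not called, that of Itga1 was -0.075 and that of Itga8 0.47 with log2 Myl7, and that of Itga6 was 0.026 with sample weights.

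With each heart left out in turn, genes called lower ranged from 366 to 1181 and called higher from 260 to 939, members called lower from 2 to 3, other subunits called lower from 0 to 2, and ligands called lower from 3 to 7 (collagen), 0 to 2 (laminin) and 4 to 6 (RGD). RGD ligands called higher ranged from 0 to 1, adhesion plaque genes called lower from 3 to 10 and higher from 0 to 2, and membrane partners called lower from 2 to 4. The log2 fold change ranged from -0.024 to 0.35 for Itga1, from -0.25 to 0.077 for Itga6, from -0.56 to 0.45 for Itga8, from -0.30 to 0.0032 for Itgb1, from -0.51 to -0.0031 for Itgb3 and from -0.74 to -0.10 for Itgav. Differences of log2 ratios ranged from -0.10 to 0.19 for Itga6 to Itgb1, from -0.56 to 0.74 for Itga8 to Itgb1, from -0.69 to -0.062 for Itgav to Itgb1, from -0.73 to 0.25 for Itgav to Itgb3 and from -0.28 to 0.39 for Itgav to Itgb5.

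The labels do not say whether replicate numbers pair the hearts. Deviations of same-numbered hearts from their group means correlated at -0.29, -0.57 and -0.35, and those of differently numbered hearts at -0.20 to 0.49. Deviations within a group sum to 0, so these values depend on each other. Since the hearts differed in the tissue they held, these correlations cannot show whether a pairing exists. With the replicate block, 524 genes were called lower and 355 higher, 2 members were called lower (Itga5 and Itgb5, each with the same fold change), and 0 laminin ligands and 4 adhesion plaque genes were called lower and 0 adhesion plaque genes higher. Counting error was largest for Itgb3, Itga8 and Itga11, which had an estimated 33, 34 and 40 fragments in their lowest hearts (17.4%, 17.2% and 15.8%), and their intervals rest on the spread between hearts.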

Other observations

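Leukocyte integrins, chosen after their values were seen, were highest in 1 heart of each genotype, the same for each gene. Itgal, the α chain of LFA-1, was at 0.93, 0.43 and 0.39 FPKM in KO/TAC hearts and at 0.42, 0.80 and 0.39 FPKM in WT/TAC hearts. Itgb2, the β chain that leukocytes share, was at 4.33, 2.88 and 2.88 FPKM in KO/TAC hearts and at 2.99, 4.24 and 3.58 FPKM in WT/TAC hearts. Itgb7 was at 1.24, 0.84 and 0.61 FPKM in KO/TAC hearts and at 0.50, 0.77 and 0.55 FPKM in WT/TAC hearts, so these 3 were, within each genotype, highest in KO/TAC replicate 1 and WT/TAC replicate 2. The B-cell gene Cd79a was also highest there, at 1.72 FPKM in KO/TAC replicate 1 and 1.04 FPKM in WT/TAC replicate 2, and so were Ptprc, Cd3e and Nkg7. The B-cell gene Ms4a1 did not share this order. It was at 0.07, 0.11 and 0.22 FPKM in KO/TAC hearts and at 0.03, 0.19 and 0 FPKM in WT/TAC hearts. The 5 lymphocyte and leukocyte markers summed to 6.95 and 3.61 FPKM in KO/TAC replicate 1 and WT/TAC replicate 2. The sums were 2.17 and 2.70 FPKM in the other KO/TAC hearts and 1.76 and 1.33 FPKM in the other WT/TAC hearts. By limma, log2 fold changes were 0.05 for Itgal, -0.10 for Itgb2 and 0.32 for Itgb7, and none was called. Itgam, the macrophage and neutrophil α chain, was at 1.88, 1.51 and 2.01 FPKM in KO/TAC hearts and at 2.04, 1.61 and 1.83 FPKM in WT/TAC hearts, without that order.

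Itga9, a receptor subunit for tenascin and osteopontin, was the most abundant subunit outside the 10 and varied among the WT/TAC hearts, at 23.85, 15.72 and 18.98 FPKM in KO/TAC hearts and at 10.25, 38.89 and 23.17 FPKM in WT/TAC hearts. Among the WT/TAC hearts it was lowest in the library with atrial transcripts and highest in WT/TAC replicate 2.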
